A study of Mus musculus with 19 samples.

Results

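The 9 genes of Polycomb repressive complex 2 (PRC2) described here are Ezh1, Ezh2, Eed, Suz12, Jarid2, Rbbp4, Rbbp7, Mtf2 and Phf19. They were chosen by symbol, with earlier results of these data known. They are 9 of the 16842 gene symbols listed in at least 1 cell set of a mouse bone-marrow RNA-seq series. Each was listed in all 19 libraries and was tested in every comparison, so none was lost to a filter on low counts. The lowest count of a member in a library was 332, for Phf19, and the highest was 21747, for Rbbp4.

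The series compares animals that carry a mutation of Asxl1 (MT) with wild-type animals (WT). Asxl1 encodes a chromatin protein whose partner enzyme removes ubiquitin from histone H2A, and the gene is often mutated in clonal blood disorders. Myeloid cells sorted on CD11b (groups named Cd11b) were drawn from mice aged 4 months (the young set, with 4 WT and 3 MT libraries) or 18 months (the old set, with 3 of each), and lineage-negative, c-Kit-positive progenitors (LK) from mice aged 18 months (3 of each). All cells came from bone marrow and were used directly. The labels do not name the Asxl1 allele, what drives it, the sex, or whether replicates came from separate animals, so p-values measure the spread between these libraries, which may be technical.

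PRC2 places methyl groups on lysine 27 of histone H3 and thereby keeps genes silent. Its catalytic subunit is EZH2 or the less active EZH1, and neither works without EED, which binds the finished mark, and SUZ12, the scaffold of the complex. RBBP4 and RBBP7 are histone chaperones of the core, while MTF2, PHF19 and JARID2 are accessory subunits that bring the complex to chromatin. In blood formation Ezh2 is known as the form of dividing progenitors and Ezh1 as that of cells that rest or have matured, and loss of PRC2 activity has been tied to Asxl1 mutation.

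Values are in CPM, counts scaled to library size with TMM factors over all 19 libraries, and fold changes are log2 differences with their standard error (SE) from edgeR's quasi-likelihood test, fitted on the libraries of each comparison. A gene was called at a Benjamini-Hochberg adjusted p under 0.05 over all genes tested. Gene counts summed to 26251822 to 38347903 per library in the young set, 41909460 to 68260809 in the old set and 31853263 to 59882448 in the LK set. The sorting markers followed the labels: Itgam, which encodes CD11b, lay at 1479.5 to 3462 CPM in the Cd11b libraries and at 45.2 to 85.6 CPM in LK libraries, and Kit at 62.1 to 115.0 and at 170.0 to 219.8 CPM. Asxl1 itself was lower in LK MT libraries (95.1 ± 2.49 CPM, SD, n = 3) than in LK WT libraries (113.1 ± 5.95, n = 3; log2 fold change -0.28, edgeR adjusted p 0.0119) and did not pass the test in young or old Cd11b cells. In the 18-month groups replicates 2 and 3 resembled each other more than either resembled replicate 1, with a chi-square per degree of freedom of 3.02 to 6.74 for these pairs against 14.6 to 47.6. In the young set 1 MT and 1 WT library, replicates 3 and 4, carried Y-linked Ddx3y and almost no Xist, while the other young libraries showed the reverse and all 18-month libraries carried Ddx3y.

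The promoters of the pair of catalytic subunits, of the scaffold and of the core chaperone with the largest difference are shown because these genes carry the differences described further on. Each runs 5′ to 3′ on the strand of its gene, from 250 bases before to 50 bases after the start site, as given by RefSeq for GRCm38.p6, and 9 of 9 members were found in that table. Capitals mark matches on either strand to the E2F words TTTCCCGC, TTTGGCGC, TTTCGCGC and TTTGCCGC and to the NF-Y word CCAAT, which reads ATTGG on the other strand. E2F factors drive genes of the cell cycle, and NF-Y is a general activator of promoters.
Ezh2, chr6:47594981-47595280 (minus strand): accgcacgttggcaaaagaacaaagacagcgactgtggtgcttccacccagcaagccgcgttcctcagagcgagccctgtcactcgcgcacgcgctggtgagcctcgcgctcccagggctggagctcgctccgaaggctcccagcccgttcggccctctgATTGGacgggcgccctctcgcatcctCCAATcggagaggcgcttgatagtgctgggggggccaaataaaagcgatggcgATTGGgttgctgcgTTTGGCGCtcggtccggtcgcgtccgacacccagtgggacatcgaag
Suz12, chr11:79992856-79993155 (plus strand): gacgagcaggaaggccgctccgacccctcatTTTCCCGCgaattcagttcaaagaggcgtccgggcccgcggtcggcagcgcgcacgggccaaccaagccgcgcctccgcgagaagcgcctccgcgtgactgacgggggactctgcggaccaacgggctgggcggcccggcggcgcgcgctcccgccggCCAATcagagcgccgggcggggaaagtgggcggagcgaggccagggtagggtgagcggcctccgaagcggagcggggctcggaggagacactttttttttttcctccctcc
Rbbp7, chrX:162760122-162760421 (plus strand): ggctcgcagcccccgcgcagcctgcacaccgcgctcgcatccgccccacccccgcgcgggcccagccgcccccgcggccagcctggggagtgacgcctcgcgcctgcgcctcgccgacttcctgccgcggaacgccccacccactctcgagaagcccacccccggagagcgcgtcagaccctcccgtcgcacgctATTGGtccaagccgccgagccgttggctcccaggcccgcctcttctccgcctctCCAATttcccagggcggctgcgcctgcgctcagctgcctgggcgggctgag
Ezh1, chr11:101226414-101226713 (minus strand): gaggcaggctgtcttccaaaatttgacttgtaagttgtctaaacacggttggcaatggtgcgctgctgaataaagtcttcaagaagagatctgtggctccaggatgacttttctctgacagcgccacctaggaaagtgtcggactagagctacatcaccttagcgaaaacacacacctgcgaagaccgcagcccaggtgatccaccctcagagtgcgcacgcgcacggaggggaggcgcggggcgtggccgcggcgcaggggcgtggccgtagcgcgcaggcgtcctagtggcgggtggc

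The Ezh2 window held the E2F word TTTGGCGC from base 4 after the start site and 3 NF-Y words. The Suz12 window held TTTCCCGC from base -219 and 1 NF-Y word, and the Rbbp7 window held 2 NF-Y words and no E2F word. In the Ezh1 window neither was found. Of the other members, Phf19 held an E2F word on the opposite strand (GCGGGAAA from base -208), and Eed, Rbbp4, Jarid2 and the second of the windows of Mtf2 held NF-Y words. An E2F word was thus present in 3 of 9 members, counted by gene, and in 2.26% of the 32851 promoters in the table, counted by window. Mtf2 and Jarid2 have more than 1 window, so these shares are not on the same scale. The NF-Y word stood in 37.4% of the promoters. The palindromic word of NRF1 was in no member and in 0.971% of promoters. These matches describe letters, and binding was not measured.

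At 18 months the catalytic subunits differed in opposite directions between LK and Cd11b cells. Ezh2 was 2.75-fold higher in LK than in Cd11b cells of WT animals, and Ezh1 was 3.07-fold lower. The chaperone Rbbp7 was 3.46-fold higher in LK cells, while the level of Eed did not pass the test. In all, 6 of the 9 members were higher and 2 lower (Ezh1 and Jarid2) in LK cells in WT libraries, and the counts in MT libraries were the same, 6 and 2. The comparison called 45.1% of all genes higher and 41.7% lower in WT libraries (86.8% either way). In MT libraries it called 45.9% and 41.9% (87.8% either way). A call by itself thus sets no member apart. The sizes are given as a description and were not ranked among all genes. The median log2 fold change of the 9 members was 0.51 in WT libraries, against 0.08 over all genes tested, and 0.52 against 0.10 in MT libraries.

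**Figure D1:**
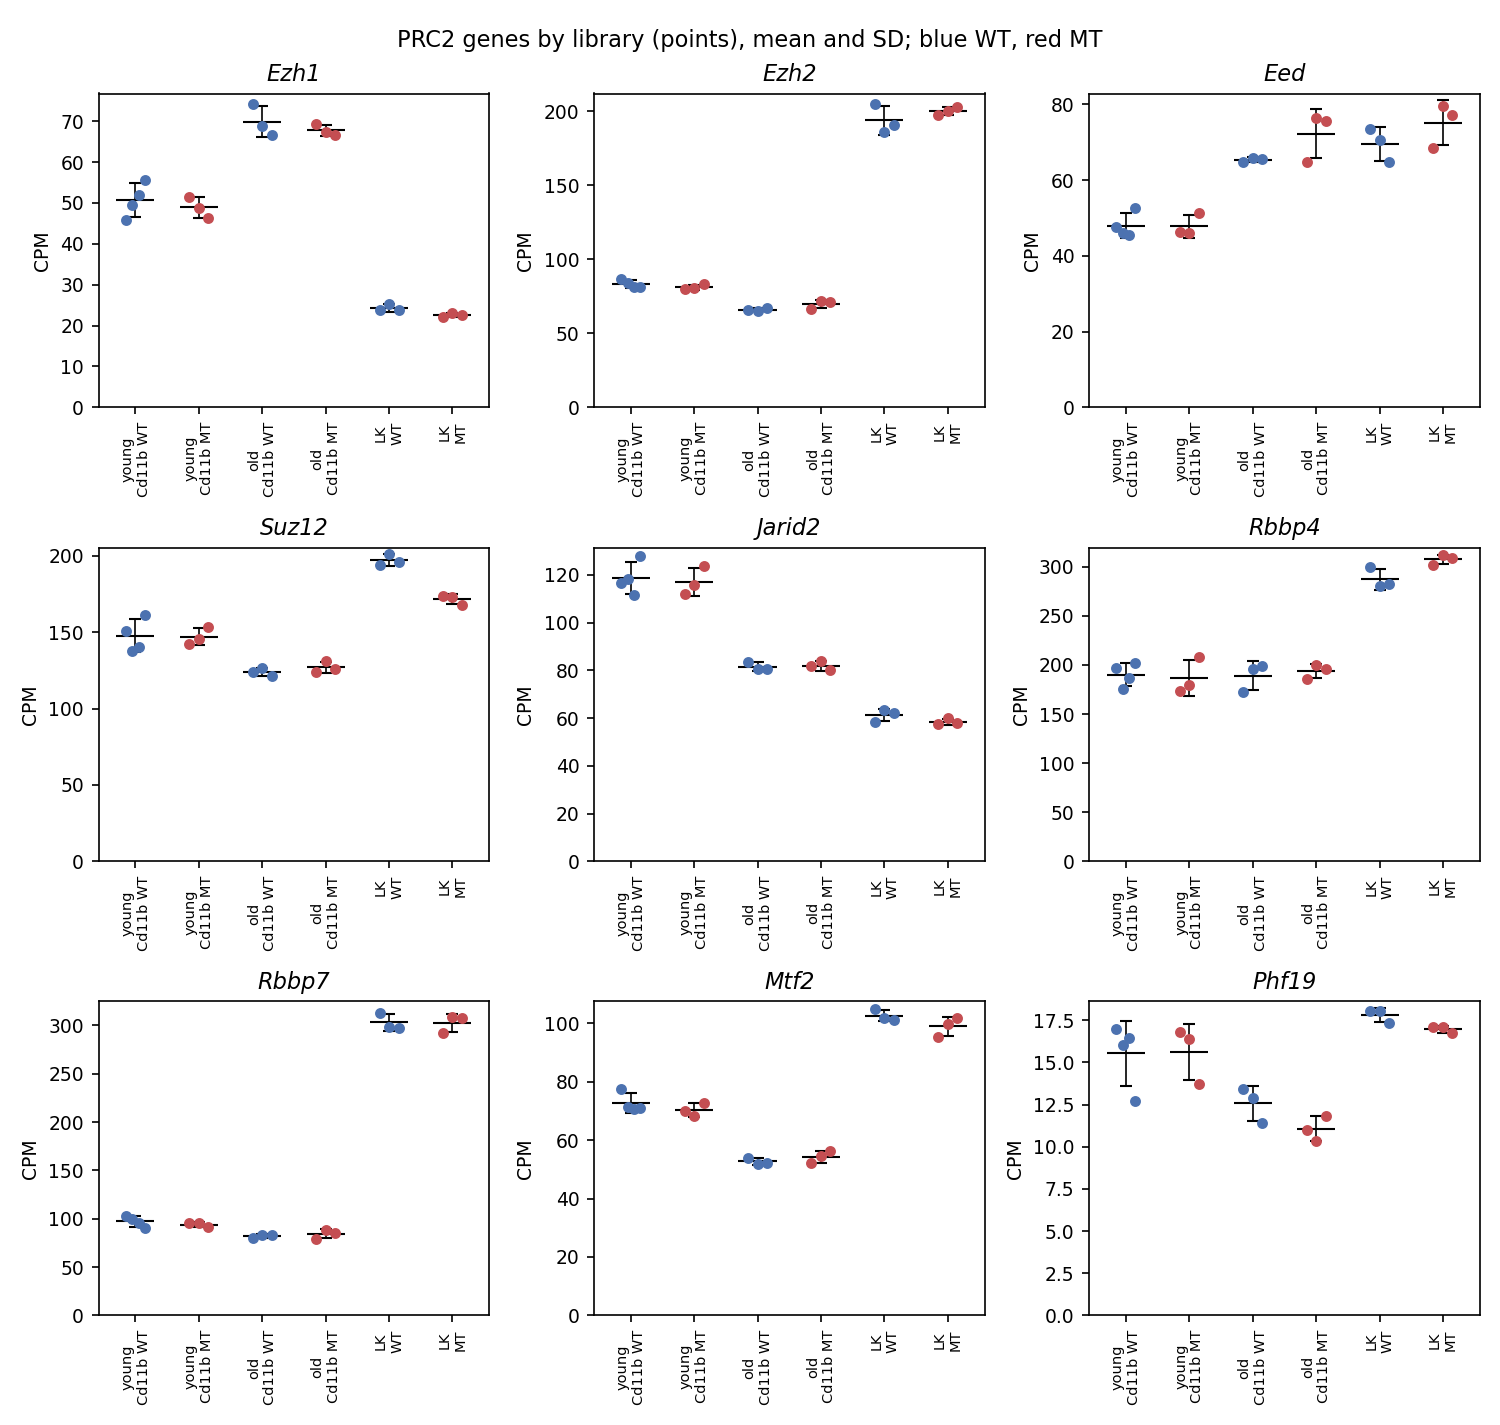
CPM of the 9 PRC2 genes in each of the 19 libraries (points, WT blue and MT red) with group mean and SD on axes that start at 0. Ezh1 was highest in old Cd11b and lowest in LK cells, Ezh2 and Rbbp7 were highest in LK cells, and Suz12 was the member whose LK MT libraries (168.0 to 173.9 CPM) lay farthest below the LK WT libraries (194.1 to 201.4 CPM) relative to the spread.

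Ezh2 (chromosome 6, 47530139 to 47595341, minus strand, GRCm38) stood at 205.1, 186.3 and 190.5 CPM in the LK WT libraries and at 65.7, 65.0 and 67.2 CPM in the old Cd11b WT libraries. The LK MT libraries held 197.5, 200.4 and 203.1 CPM and the old Cd11b MT libraries 66.4, 71.6 and 71.2 CPM. No LK library came near the Cd11b range, which in this contrast held for 8 of the 9 members in either genotype and for 88.6% of all genes in WT and 89.4% in MT libraries. The log2 fold change of Ezh2 was 1.46 (SE 0.05, adjusted p 1.34e-08) in WT and 1.42 (SE 0.04, adjusted p 5.52e-10) in MT libraries.

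Ezh1 (chromosome 11, 101191115 to 101226463, minus strand) ran the other way, at 23.9, 25.4 and 23.8 CPM in LK WT libraries against 74.2, 68.9 and 66.7 CPM in old Cd11b WT libraries. In MT libraries it stood at 22.2, 23.1 and 22.6 CPM in LK cells and at 69.3, 67.4 and 66.7 CPM in old Cd11b cells. The LK and Cd11b ranges did not overlap. The log2 fold change of Ezh1 was -1.62 (SE 0.06, adjusted p 3.20e-08) in WT and -1.69 (SE 0.04, adjusted p 3.31e-10) in MT libraries. Per kilobase of exon, Ezh1 and Ezh2 were level in old Cd11b WT cells (means of 9.40 and 9.88 CPM per kb) and far apart in LK WT cells (3.27 and 29.0 CPM per kb). The length used is the union of all annotated exons of a gene, and which transcripts were expressed was not examined.

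Since both genes are counted in the same library, their ratio needs no scaling between libraries. There were 0.886, 0.943 and 1.01 Ezh2 counts per Ezh1 count in old Cd11b WT libraries, and 8.59, 7.34 and 8.01 in LK WT libraries. The old Cd11b MT libraries held 0.958, 1.06 and 1.07, and the LK MT libraries 8.90, 8.66 and 8.999. The ratio was 8.43-fold higher in LK than in Cd11b cells in WT and 8.61-fold higher in MT libraries, and in both cases the groups did not overlap. A two-sided exact permutation test gave p = 0.1 for each, the smallest value that 3 against 3 libraries allow, and 0.167 after Benjamini-Hochberg adjustment over the 5 ratio comparisons. Young Cd11b cells lay between the other sets, at 1.46 to 1.89 in WT and 1.55 to 1.79 in MT libraries.

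**Figure D2:**
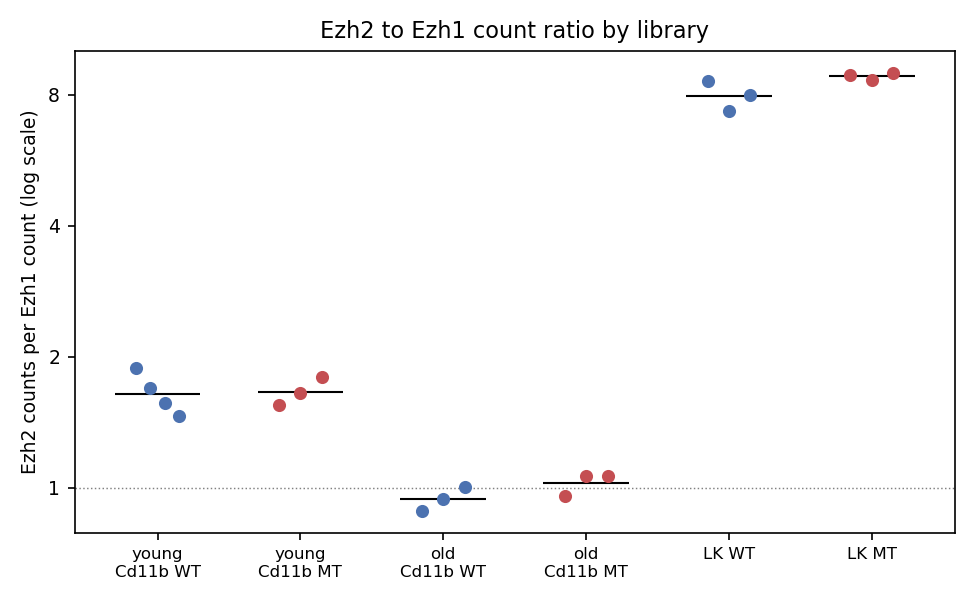
Ezh2 counts per Ezh1 count in each library (points, log axis, WT blue and MT red), with a bar at the geometric mean of each group and a dotted line at 1. LK libraries lie between 7.34 and 8.999, young Cd11b libraries between 1.46 and 1.89, and old Cd11b libraries between 0.886 and 1.07.

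The scaffold and the reader of the core behaved differently from each other. Suz12 (chromosome 11, 79993106 to 80034123, plus strand) stood at 194.1, 201.4 and 195.6 CPM in LK WT libraries and at 123.7, 126.4 and 121.3 CPM in old Cd11b WT libraries. It was higher in LK cells by a log2 fold change of 0.57 (SE 0.05, adjusted p 3.55e-06) in WT and 0.33 (SE 0.04, adjusted p 2.04e-05) in MT libraries. Eed (chromosome 7, 89954654 to 89980983, minus strand) stood at 73.3, 70.5 and 64.7 CPM in LK WT and at 64.8, 65.8 and 65.6 CPM in old Cd11b WT libraries, and these ranges overlapped. Its log2 fold change was -0.01 (SE 0.05, adjusted p 0.879) in WT and -0.04 (SE 0.07, adjusted p 0.570) in MT libraries, and its sign turned under alternative fits.

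Of the chaperones, Rbbp7 (chromosome X, 162760402 to 162779092, plus strand) had the largest difference of the members, at 313.0, 298.6 and 297.7 CPM in LK WT libraries against 79.9, 83.2 and 82.6 CPM in old Cd11b WT libraries. Its log2 fold change was 1.79 (SE 0.04, adjusted p 2.56e-09) in WT and 1.74 (SE 0.05, adjusted p 4.19e-10) in MT libraries. Rbbp4 (chromosome 4, 129307100 to 129335370, minus strand), at 280.1 to 299.4 CPM in LK WT and 172.2 to 199.2 CPM in old Cd11b WT libraries, differed by 0.51 (SE 0.06, adjusted p 7.01e-05) and in MT libraries by 0.56 (SE 0.04, adjusted p 5.11e-07). On the scale of CPM per kb of all annotated exons, Rbbp7 was the highest member in LK WT cells, at 104.2 ± 2.96 (SD, n = 3). It was followed by Suz12 at 39.8 ± 0.77 and Rbbp4 at 32.9 ± 1.21.

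The accessory subunits split. Mtf2 (chromosome 5, 108065674 to 108109004, plus strand), a Polycomb-like protein that helps PRC2 bind CpG islands, was at 101.3 to 104.8 CPM in LK WT and at 51.9 to 54.0 CPM in old Cd11b WT libraries. Its log2 fold change was 0.86 (SE 0.04, adjusted p 1.72e-07) in WT and 0.76 (SE 0.04, adjusted p 5.96e-08) in MT libraries. Its paralog Phf19 (chromosome 2, 34893757 to 34914026, minus strand) had the lowest CPM of the members, at 17.3 to 18.1 in LK WT and 11.4 to 13.4 in old Cd11b WT libraries. Phf19 differed by 0.41 (SE 0.08, adjusted p 0.00105) and in MT libraries by 0.52 (SE 0.07, adjusted p 8.93e-05). Jarid2 (chromosome 13, 44729474 to 44921643, plus strand), which belongs to the form of the complex without Polycomb-like subunits, was lower in LK cells, at 58.4, 63.2 and 62.1 CPM in WT libraries against 83.6, 80.7 and 80.4 CPM in old Cd11b WT libraries. Its log2 fold change was -0.51 (SE 0.06, adjusted p 3.11e-05) in WT and -0.59 (SE 0.04, adjusted p 2.42e-07) in MT libraries.

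**Figure D3:**
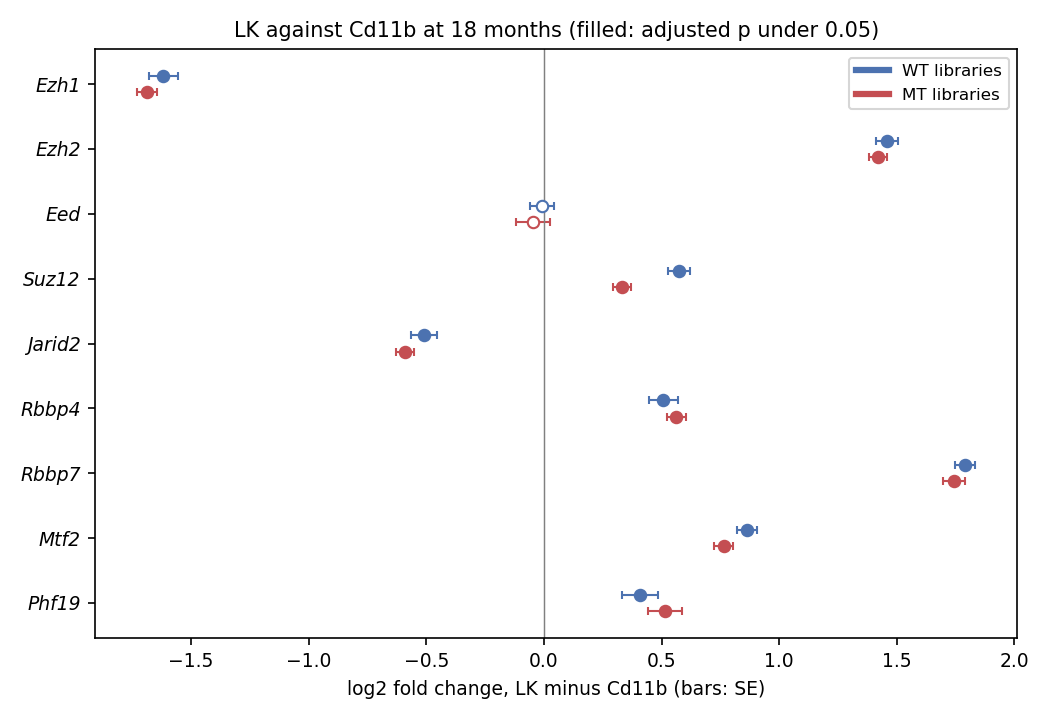
Log2 fold change of LK against Cd11b cells at 18 months for each PRC2 gene (points with SE bars, WT blue and MT red, filled where the edgeR adjusted p is under 0.05). Rbbp7 and Ezh2 lie far to the right, Ezh1 far to the left and Eed at 0, and Suz12 has the widest gap between WT (0.57) and MT (0.33).

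Markers of cell state moved with this contrast. Of 17 proliferation genes 15 were higher and 1 lower (E2f2) in LK WT cells, and their median was 1.27 on the log2 scale. Mki67 was not called, with means of 1073.8 CPM in LK WT and 1118.4 CPM in old Cd11b WT libraries. In MT libraries 14 were higher and 3 lower (E2f2, Mki67 and Top2a). The 17 genes summed to 6342 to 6586 CPM in LK WT against 3605 to 3650 CPM in old Cd11b WT libraries. Markers of neutrophils summed to 140650 to 171830 CPM in old Cd11b WT libraries and to 451 to 955 CPM in LK WT libraries, with 8 of 8 lower in LK cells. Fewer cells of a type and less RNA per cell cannot be told apart in bulk libraries, and the part of cell makeup and of proliferation in the differences of Ezh1 and Ezh2 was not tested.

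The genes around PRC2 gave no single direction between these cell types. Of 4 other accessory genes listed, Aebp2 was higher in LK WT cells (log2 fold change 0.28), Phf1 (-3.64) and Lcor (-1.997) were lower, and Lcorl (-0.18, adjusted p 0.0587) was not called. Phf1, the third Polycomb-like gene, thus ran opposite to its paralogs Mtf2 and Phf19. Of 22 genes of PRC1, the complex that places ubiquitin on histone H2A, 11 were higher and 10 lower. Of 3 genes of H3K27 demethylases, which undo the work of PRC2, Kdm6b (-3.75) and Kdm6a (-0.59) were lower and Uty (0.47) was higher. Of 15 other genes of the CAF-1, NuRD and Sin3 complexes, which also use RBBP4 or RBBP7, 7 were higher and 5 lower. Among 11 genes that PRC2 is known to hold down in blood cells, 5 could be tested here, Hoxa3, Hoxa5, Hoxa7, Hoxa9 and Hoxa10, and all 5 were higher in LK WT cells, at a log2 median of 3.86. Their means were 0.07 to 0.20 CPM in old Cd11b WT and 1.06 to 7.46 CPM in LK WT libraries. Genes so near the floor in Cd11b cells pass the low-count filter through the LK libraries, so their direction was largely set in advance. These 5 genes are also known as genes of progenitors.

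The question of the design is whether mutant Asxl1 changes these genes. In Cd11b cells none of the 9 members was called, and in LK cells Suz12 alone was, at a level 1.17-fold lower in MT libraries. In young Cd11b cells 0 of 9 members were called, where 0% of 13755 genes were called by edgeR. At an unadjusted p under 0.05 that test held 444 genes, none of them a member, and DESeq2 called 19 genes. The members' log2 fold changes ran from -0.05 (Ezh1) to 0.01 (Phf19), each with an adjusted p of 0.999, and the MT and WT ranges of all 9 overlapped, where 4.44% of genes had none. With an SE of 0.05 to 0.08 for members other than Phf19 (SE 0.12), small differences were not detectable here.

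In old Cd11b cells again 0 of 9 members were called, where 0.336% of 13398 genes were called (0.127% higher and 0.209% lower). At an unadjusted p under 0.05 none of the 9 passed either. Eed stood at 64.8, 76.3 and 75.7 CPM in MT and at 64.8, 65.8 and 65.6 CPM in WT libraries, so that 2 MT libraries lay above and 1 within the WT range (log2 fold change 0.14, SE 0.06, adjusted p 0.310). Phf19 stood at 10.97, 10.4 and 11.8 CPM in MT and 13.4, 12.9 and 11.4 CPM in WT libraries, with overlap (log2 fold change -0.19, SE 0.09, adjusted p 0.333). The other 7 lay between -0.05 (Ezh1) and 0.07 (Ezh2). The Ezh2 to Ezh1 ratio differed by 1.01-fold between MT and WT in young cells (two-sided exact permutation p = 0.914, smallest possible 0.0571) and by 1.09-fold in old cells (exact permutation p = 0.2, adjusted 0.25).

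In LK cells Suz12 was the 1 of 9 members that was called, where the test called 29.8% of 14113 genes (13.9% higher and 15.9% lower), so the share of members called lay below that of all genes. The LK MT libraries held 173.9, 173.0 and 168.0 CPM of Suz12 and the LK WT libraries 194.1, 201.4 and 195.6 CPM. Every MT library lay below every WT library, and the gap between the groups was wider than the spread within either. The log2 fold change was -0.23 (SE 0.04, adjusted p 0.00891). Groups failed to overlap in 43.2% of all genes tested in this comparison, and in 4 of the 9 members.

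The other 3 members without overlap were Ezh1, Phf19 and Rbbp4. Ezh1, at 22.2 to 23.1 CPM in MT and 23.8 to 25.4 CPM in WT libraries, differed by -0.14 (SE 0.05, adjusted p 0.0746), and Phf19, at 16.7 to 17.1 and 17.3 to 18.1 CPM, by -0.10 (SE 0.05, adjusted p 0.161). Rbbp4, at 301.9 to 311.7 and 280.1 to 299.4 CPM, differed by 0.07 (SE 0.03, adjusted p 0.168). The remaining 5 lay between -0.10 (Jarid2) and 0.08 (Eed), and Ezh2 stood at 0.02. The members' median was -0.08, against 0.02 over all genes tested. The Ezh2 to Ezh1 ratio was 1.11-fold higher in MT libraries without overlap (8.66 to 8.999 against 7.34 to 8.59; two-sided exact permutation p = 0.1, the smallest possible, adjusted 0.167).

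**Figure D4:**
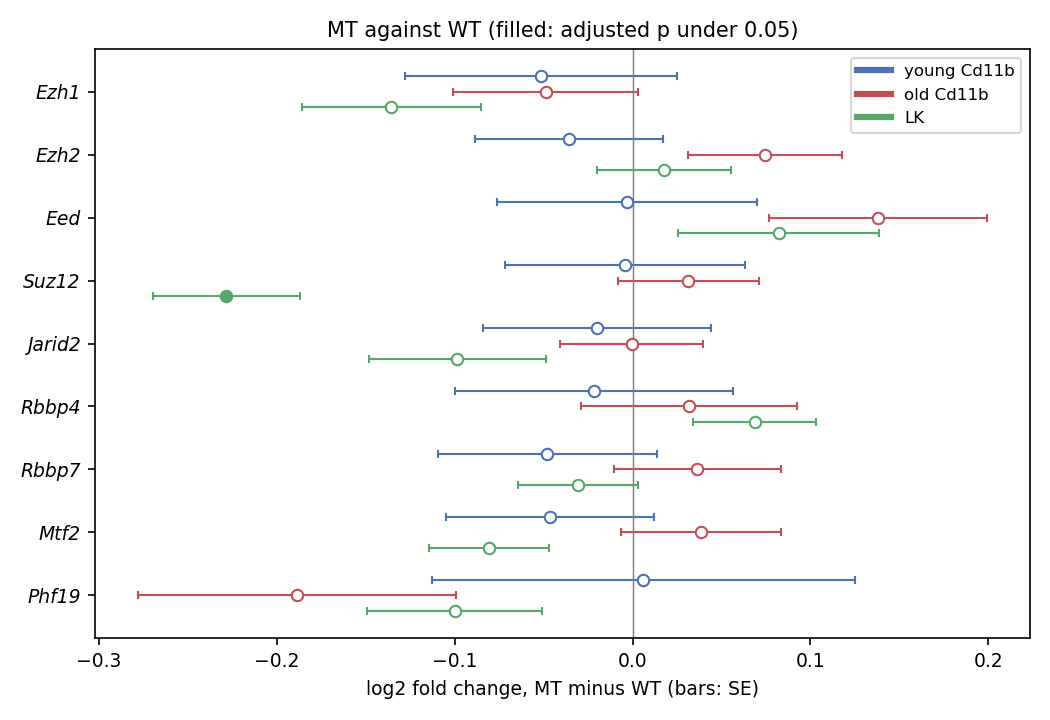
Log2 fold change of MT against WT for each PRC2 gene in young Cd11b (blue), old Cd11b (red) and LK cells (green), with SE bars and filled points where the edgeR adjusted p is under 0.05. The 1 filled point is Suz12 in LK cells at -0.23, and the other values lie between -0.19 and 0.14.

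The difference of Suz12 between the cell types was tested itself. In the 12 libraries of 18 months the MT against WT change of Suz12 was lower in LK than in Cd11b cells by 0.27 on the log2 scale (interaction -0.27, SE 0.06, adjusted p 0.0124), and no other member was called, where this interaction called 20.7% of 13996 genes (8.79% higher and 12% lower). The next members were Mtf2 (-0.13, adjusted p 0.130) and Jarid2 (-0.11, adjusted p 0.294). In the corresponding test between old and young Cd11b cells 0 of 9 members were called, where 0.0214% of 14024 genes were, and none of the 9 reached an unadjusted p under 0.05. The values ran from -0.19 (Phf19) to 0.14 (Eed).

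The Suz12 calls depended on the libraries entered and on how replicates were counted. With replicates 2 and 3 of each group summed to 1 library, since they resembled each other, the log2 fold change in LK cells was -0.21 with an adjusted p of 0.187, and the interaction -0.24 with an adjusted p of 0.380. With all 19 libraries in 1 fit the interaction was -0.24 as well, with an adjusted p of 0.0510. With replicates 2 and 3 summed, 3 of 14512 genes were called in LK cells. With a replicate block Suz12 was not called in LK cells either, and 3 of 14113 genes were. Leaving out 1 library at a time kept the log2 fold change between -0.27 and -0.20 and the adjusted p between 0.00104 and 0.0496, in 6 of 6 cases under 0.05. Without LK WT replicate 1, Ezh1 (-0.19, adjusted p 0.0171), Jarid2 (-0.17, adjusted p 0.00787) and Mtf2 (-0.10, adjusted p 0.0340) were called as well. This made 4 of 9 members, in a fit that called 5569 of 14342 genes.

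**Figure D5:**
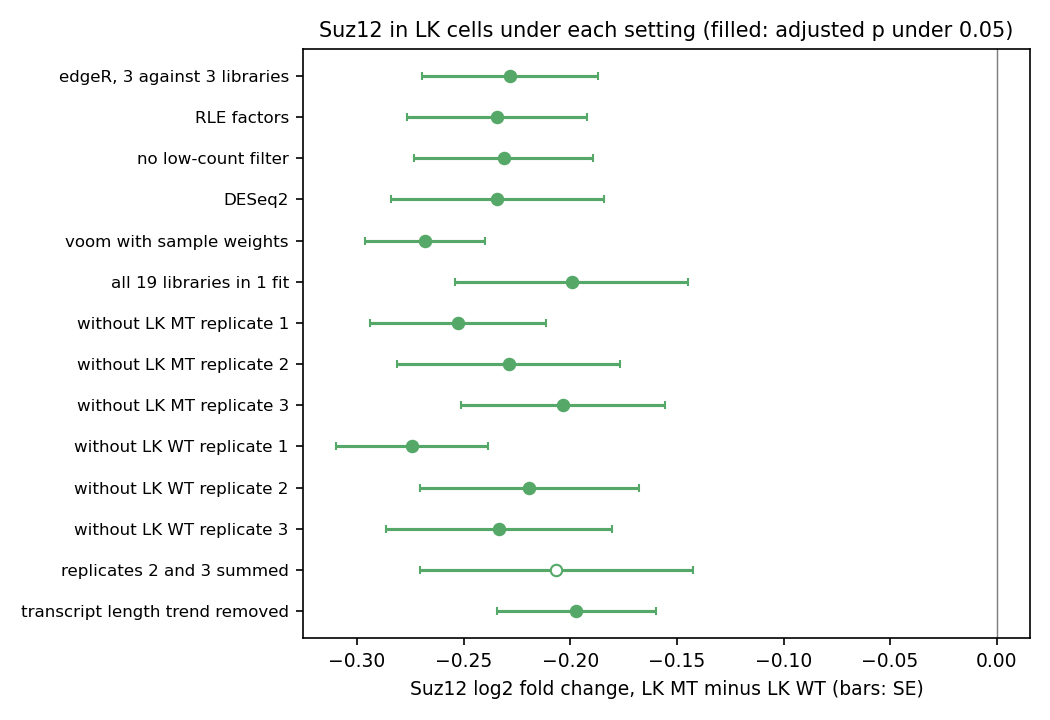
Log2 fold change of Suz12 in LK MT against LK WT libraries with SE bars, as reported (top) and under other tools, factors, filters and sets of libraries, filled where the adjusted p is under 0.05. All values lie left of 0, between -0.27 and -0.20, and of the settings drawn the 1 open point is the fit in which replicates 2 and 3 were summed. The fit with a replicate block, in which Suz12 was not called either, is not drawn.

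Other features of the LK libraries differed with genotype as well. This comparison called 29.8% of all genes (13.9% higher and 15.9% lower), so the marker calls below are a description. The summed level of 8 neutrophil markers was 1062, 3675 and 3560 CPM in LK MT and 955, 475 and 451 CPM in LK WT libraries, with a log2 fold change above 0 for 8 of 8 and a call for 1 (S100a8), and none was at 0. The 17 proliferation genes summed to 5814 to 5916 CPM in MT and 6342 to 6586 CPM in WT libraries, 9 of them lower and 1 higher (Tyms). The 7 stem and progenitor markers summed to 931 to 987 and 1011 to 1050 CPM, 3 of them lower (Flt3, Cdk6 and Kit). Monocyte and macrophage markers summed to 417 to 448 CPM in MT and 481 to 519 CPM in WT libraries (3 of 5 lower), and erythroid markers to 2043 to 2087 and 2242 to 2367 CPM (2 of 6 lower). Markers of eosinophils, basophils and mast cells were lower for 3 of 5 genes (504 to 531 against 532 to 726 CPM), and T and NK markers were higher for 2 of 6 (194 to 252 against 158 to 195 CPM). B lineage (42.3 to 71.9 against 41.4 to 52.4 CPM) and megakaryocyte markers (204 to 296 against 162 to 197 CPM) had 1 gene higher each. Log2 fold changes also ran with transcript length in LK cells (Spearman -0.44 over 12556 genes, which are not independent), with a median of 0.18 in the 25% of genes with the shortest and -0.14 in the 25% with the longest exons. With that trend removed Suz12, whose exons cover 4945 bases, stood at -0.20 (adjusted p 0.0114). Rbbp4 (0.21, adjusted p 0.0132) and Rbbp7 (-0.10, adjusted p 0.0336) were called too, in a fit that called 3272 of 14113 genes. The part of these cell types and of proliferation in the Suz12 difference was not tested.

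Genes that work with PRC2 were called in LK cells in both directions, and none of the lists below had a gene called between MT and WT in young or old Cd11b cells. Of 4 other accessory genes, Phf1 was higher in LK MT libraries (0.30, adjusted p 0.0195), Lcor (-0.84, adjusted p 0.0117) and Lcorl (-0.30, adjusted p 0.0226) were lower, and Aebp2 (-0.06) was not called. Of 22 PRC1 genes 1 was higher (Cbx6, 0.24) and 7 lower, among them Pcgf3 (-0.45, adjusted p 0.00627), the corepressor genes Bcor (-0.37) and Bcorl1 (-0.28), and Bmi1 (-0.19, adjusted p 0.0194), whose product supports the renewal of stem cells. The H3K27 demethylase genes Kdm6a (-0.39, adjusted p 0.00938) and Uty (-0.41, adjusted p 0.00832) were lower, and Kdm6b (-0.13, adjusted p 0.188) was not called. Of the 15 genes of CAF-1, NuRD and Sin3, Sin3b (0.20) and Mbd3 (0.17) were higher and 6 were lower, with Gatad2b (-0.82) and Chd4 (-0.30) the farthest. Of 6 tested genes known to be held down by PRC2, 0 were called, and their median was -0.00. Against the 29.8% of all genes called, these shares are a description. With replicates 2 and 3 summed, where 3 of all genes tested were called, none of the genes named here was.

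Between old and young Cd11b cells of WT animals 8 of 9 members were called, 2 higher and 6 lower, where the comparison called 73.1% of all genes (36.1% higher and 36.9% lower). Ezh1 stood at 74.2, 68.9 and 66.7 CPM in old and at 45.8, 49.6, 51.9 and 55.5 CPM in young libraries, without overlap (log2 fold change 0.44, SE 0.07, adjusted p 2.87e-04). Ranges without overlap were found for 7 of 9 members and for 72.1% of all genes. Eed was also higher, at 64.8 to 65.8 CPM in old and 45.4 to 52.7 CPM in young libraries (0.43, SE 0.07, adjusted p 1.47e-04). Ezh2 was lower, at 65.0 to 67.2 CPM in old and 81.2 to 86.5 CPM in young libraries (-0.36, SE 0.05, adjusted p 1.48e-04). The catalytic subunits thus differed in opposite directions here too, by less than between LK and Cd11b cells.

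The other lower members in old cells were Jarid2 (-0.56, SE 0.06), Mtf2 (-0.48, SE 0.06), Phf19 (-0.33, SE 0.11), Suz12 (-0.27, SE 0.07) and Rbbp7 (-0.26, SE 0.06), and Rbbp4 (-0.03, adjusted p 0.759) was not called. Jarid2 had the widest gap, with 80.4 to 83.6 CPM in old against 111.7 to 127.9 CPM in young libraries. Phf19 rested on few libraries, because its adjusted p of 0.0226 rose to 0.0615, 0.0571 or 0.0568 without young WT replicate 1, 2 or 3 and to 0.104 without old WT replicate 3. With the level of Xist as a covariate, an alternative chosen after seeing the data, Phf19 (-0.02, adjusted p 0.887) and Rbbp7 (-0.15, adjusted p 0.107) were no longer called. In that fit 6 members were called, as were 8236 of 13719 genes. The old set does not list Xist, which was entered there as absent. Of the young WT libraries only replicate 4 had almost no Xist, so the age difference in that fit rests largely on this library. In the young libraries without Xist, Phf19 stood at 13.7 and 12.7 CPM, below the 16.0 to 17.0 CPM of the other 5 young libraries.

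Age was sampled in separate sets of libraries, and age and set cannot be told apart. Age also ran largely with sex-linked expression. Ddx3y lay at 76.0 to 76.6 CPM in old WT libraries, while in young WT libraries its median was 0.018 CPM and its highest value 109.3 CPM. The Xist covariate leaned on young WT replicate 4 and does not separate sex from age, so the part of sex was not tested. The sets also differed in markers of other cells. Neutrophil markers summed to 140650 to 171830 CPM in old against 43512 to 55751 CPM in young WT libraries (8 of 8 higher), stem and progenitor markers to 177 to 184 against 485 to 626 CPM (7 of 7 lower), and markers of eosinophils, basophils and mast cells to 81.3 to 161.9 against 1651 to 2053 CPM (5 of 5 lower). B lineage markers were lower for 5 of 6 genes and T and NK markers for 6 of 6. Proliferation genes were split, with 4 higher and 8 lower of 17. The part of these cells in the differences of the members was not tested.

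By group mean, Ezh1 was ordered from old over young Cd11b down to LK cells, and Ezh2, Suz12, Rbbp7 and Mtf2 from LK over young down to old Cd11b cells, with no overlap of single libraries between neighbouring cell sets. Within a set, MT and WT libraries of these 5 genes overlapped apart from Suz12 and Ezh1 in LK cells. For Phf19 neighbouring groups overlapped at each step but that from LK WT to LK MT cells. Over the 19 libraries Ezh1 and Ezh2 were opposed (Pearson r of log2 CPM -0.99), and Ezh2 ran with Rbbp7 (0.996), Rbbp4 (0.95) and Mtf2 (0.94). These values mostly describe the 3 cell sets. With group means subtracted, r was -0.63 for Ezh1 and Ezh2, 0.70 for Ezh2 and Mtf2, 0.68 for Ezh2 and Rbbp7 and 0.71 for Suz12 and Jarid2, while Phf19 ran against Jarid2 (-0.69), Rbbp4 (-0.62) and Suz12 (-0.59). The libraries share depth and sets, and no test was made.

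Among 10137 genes with a mean of at least 5 CPM, the 3 most like Ezh2 over the 19 libraries were Set (0.998), Impdh2 (0.997) and Ppa1 (0.997). With group means subtracted they were Slbp (0.877), which binds the stem-loop of histone mRNA, Igll1 (0.854) and Ctsl (0.847). The genes most like Ezh1 were Dennd5a, Sidt2 and D19Wsu162e (0.996 each), and, with group means subtracted, Smap2 (0.879), Zfp426 (0.864) and Eps15l1 (0.819). No gene of either list was shared between the measures, and neither list held another member.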

How the data were processed

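RNA-seq counts of 19 libraries were used. Per library, the authors deposited 1 table of counts, whole numbers for each gene symbol. STAR, HTSeq, DESeq2 and the build mm10 are named in the submitters' processing notes, without their roles, and the use of strand in counting is not given in the sources used here. A directional kit was used, per the labels' protocols. Each cell set lists its own genes (15703, 15070 and 15793), and a comparison used those listed in all of its sets. Deposited counts of transposable elements were not used.

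Counts were tested with edgeR 4.0.16 (filterByExpr, TMM, robust quasi-likelihood fit, R 4.3.3) in 8 comparisons, each on its own groups, and p-values were adjusted by Benjamini-Hochberg over all genes. CPM are on 1 scale for the 19 libraries, while fold changes use the factors of their comparison. Exon lengths and positions are from GENCODE M21 (GRCm38, that is mm10), found for 14728 of 16842 symbols. The ratio of Ezh2 to Ezh1 counts was compared by exact permutation in Python 3.11.15 (scipy 1.17.1, pandas 2.3.3, numpy 2.4.6, figures with matplotlib 3.10.9). On simulated LK counts of 14113 genes with 200 changed, edgeR recovered 88.1% at 1.5-fold and 100% at 2-fold and 4-fold. The simulated libraries were independent, with the same spread for every gene, unlike the deposited ones.

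Alternatives were RLE factors, no filter, DESeq2 1.42.0, voom with sample weights (limma 3.58.1), all 19 libraries in 1 fit, a replicate block, leaving out each library, replicates 2 and 3 summed and removal of the length trend. An Xist covariate was added after seeing the data. Named were the 9 members, Asxl1, up to 5 called genes of each list with the smallest p, genes that describe the libraries, and the 3 genes most like Ezh1 and Ezh2 by each measure. The members, lists and rules were chosen with earlier results of these data known.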

Additional observations from a re-analysis of the deposited data

Results flagged for a closer look

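Mtf2 in young Cd11b WT cells stood at 77.6 CPM in replicate 1 and at 70.7 to 71.3 CPM in the other 3 libraries, so that 1 library lay far from the rest by Dixon's criterion. This was 1 of 10 values tested so in that group, the 9 members and the Ezh2 to Ezh1 ratio, and chance alone marks about 1 in 20. The change of Suz12 with genotype differed between LK and Cd11b cells at 18 months by -0.27 on the log2 scale (SE 0.06, edgeR adjusted p 0.0124), with -0.23 in LK and 0.03 in Cd11b cells.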

How the results depend on the processing

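The members called between LK and Cd11b cells (8 of 9 in WT and in MT libraries) and in both age comparisons stayed within 1.5 times of the reported count in every alternative, and leaving out 1 library gave 8, 8 to 9, 0 (interaction) and 7 to 8 (old against young). Between MT and WT the count stayed at 0 in young cells. In old cells it became 1 with voom (Eed). In LK cells it went from 1 to 7 with voom, 3 with the length trend removed and 0 with replicates 2 and 3 summed, and to 1 to 4 when 1 library was left out, with 4 without LK WT replicate 1. For the interaction with cell type it became 4 with voom, 0 with all 19 libraries in 1 fit (Suz12 adjusted p 0.0510) and 0 with replicates 2 and 3 summed. Fewer samples entered the summed fit, and the other causes were not tested. Whether replicate numbers pair the samples is not known. With group means subtracted, same-numbered libraries had correlations of -0.49 to -0.20 in LK, -0.11 to 0.12 in old and -0.33 to 0.52 in young cells. Few libraries entered each group mean, so these values cannot exclude pairing. With the replicate block the LK count was 0 (Suz12 adjusted p 0.0688), all genes called in LK cells went from 4206 to 3, and the young ratio turned to -0.043, Phf19 in young cells to -0.083 and Rbbp4 between ages to 0.00145.

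Signs of values that did not pass the test turned elsewhere. Jarid2 in old cells (-0.00054) was 0.011 with voom, 0.0044 with all 19 libraries and -0.013 to 0.018 without 1 library, and Jarid2 in LK cells was 0.066 with the length trend removed. Rbbp4 in old cells was -0.010 with voom, -0.0060 with the length trend removed and -0.032 to 0.069 without 1 library, and between ages it was 0.069 with voom and -0.061 to 0.041 without 1 library. Without 1 library Phf19 in young cells ran from -0.077 to 0.092, Ezh2 in LK cells from -0.017 to 0.024 and the young log2 ratio from -0.043 to 0.080. Eed between LK and Cd11b cells was 0.086 in WT and 0.053 in MT libraries with all 19 libraries, and -0.064 to 0.013 and -0.132 to 0.018 without 1 library. The count of all genes called in LK cells ran from 983 to 5569 without 1 library. It was 8237 with voom, 3272 with the length trend removed and 3 with replicates 2 and 3 summed. With voom 4247 of 13398 genes were called in old cells and 6994 of 13996 for the interaction with cell type. No member had fewer than 332 counts in a library. In the simulation edgeR recovered 88.1% of 1.5-fold changes between LK groups and 53.7% of 1.5-fold interactions, and smaller changes were not simulated. The simulated libraries were independent and had the same spread for every gene. Replicates 2 and 3 of the data resembled each other, so these shares may not hold for the data.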
